A study of Homo sapiens with 54 samples.

Results

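The comparison set untreated PEA2, a platinum-resistant ovarian cancer cell line, against untreated PEA1, the platinum-sensitive line of the same intra-patient pair. It used 5 of the 54 RNA-seq libraries of the series: PEA2 replicates 1 to 3 and PEA1 replicates 1 and 2. The study profiled 3 such pairs of high-grade serous ovarian cancer lines, in 18 groups of line and treatment, untreated and after 8 h or 24 h of 80 µM carboplatin, and its title names CPT1A, the enzyme that commits fatty acids to mitochondrial oxidation. The unit of the dose is that of the sample labels and differs in the series text (mM). By their titles the untreated cells are at time 0, and by the series text they received vehicle and were collected at 24 h. Both lines grew in RPMI medium with fetal bovine serum, and the labels name no genetic change in either. The library labelled PEA1 untreated replicate 3 was left out by rule, because it lists few genes above 0 and lies close to PEA2, and its values are given separately.

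Each line is 1 culture lineage, so the comparison describes these 2 lines and not resistant tumours in general. The labels give the PEA2 libraries passage numbers 23, 24 and 24 and the PEA1 libraries much higher ones, so line and passage cannot be told apart. The treated libraries of each line have later passage numbers than its untreated ones, so drug and passage cannot be told apart either. Libraries of the same line and replicate number at 8 h and 24 h carry the same passage number, so these times are not read as independent checks. The series text says that the experiment was done on different days, and the labels do not tie a replicate number to a day. The p-values therefore measure the spread between these cultures of 1 line each, pooled over the untreated and the carboplatin-treated libraries. Fewer cells of a kind and less RNA per cell cannot be told apart in such bulk samples.

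High-grade serous carcinoma is thought to arise mostly from the secretory epithelium of the fallopian tube, a Müllerian epithelium marked by the transcription factor PAX8. Carcinoma cells can sit at different points between an epithelial state, with E-cadherin, claudins, desmosomes and keratins, and a mesenchymal state, with vimentin, interstitial collagens and regulators such as ZEB1, SNAI2 and TWIST1. Carboplatin crosslinks DNA, and transporters, glutathione, metallothioneins, DNA repair and apoptosis genes are the usual places to look when lines differ in sensitivity. The comparison asks what already separates the lines before any drug.

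All levels below are length-adjusted transcript shares (TPM) from the authors' table, rescaled between libraries by the median ratio. A difference is PEA2 minus PEA1 on the log2(TPM + 1) scale with its standard error, which understates the change of low genes. A gene was called at a Benjamini-Hochberg adjusted p under 0.05 from limma over 16090 genes. The 3 PEA2 libraries listed 15266, 15278 and 15691 genes above 0. PEA1 replicate 1 listed 15486, PEA1 replicate 2 listed 11754 and the left-out library 8635. Of the 8597 genes at 10 TPM or more in PEA1 replicate 1, PEA1 replicate 2 listed 699 at 0 (8.13%), against 118 to 143 in the PEA2 libraries. A 0 in PEA1 replicate 2 is therefore not read as absence, and each count of list members called is given with and without it. TPM keeps no read number, so the depth behind each value is unknown. Across the tested genes the PEA2 libraries correlated with each other at r of 0.913 to 0.925, and the PEA1 libraries at 0.763. PEA1 replicate 1 correlated with the PEA2 libraries at 0.767 to 0.786, no lower than with PEA1 replicate 2.

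Untreated PEA2 and PEA1 differed in 4592 of 16090 genes (28.5%). PEA2 was higher in 2742 genes (17%) and lower in 1850 (11.5%). Each count of list members below is to be set beside these 2 shares, and a count near them is not a result about the list. All 3 PEA2 values lay above both PEA1 values for 4156 genes (25.8%) and below both for 3257 (20.2%). The number rested strongly on PEA1 replicate 2, which was listed at 0 for 1486 of the 2742 higher genes, including 970 in which PEA1 replicate 1 was above 0. With the zeros of PEA1 replicate 2 treated as missing, 1917 genes (11.9%) were higher and 2014 (12.5%) lower. Without PEA1 replicate 2, the lone PEA1 library was assumed to vary as much as the rest, and 1295 genes (8.11%) were higher and 1184 (7.41%) lower. A fit of the 5 compared libraries alone called 1179 genes, 739 higher and 440 lower.

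The carboplatin-treated libraries of both lines share no sample with this comparison and give the line difference again under drug, at later passages. At 8 h, 3002 genes were called (18.7%), with 1321 higher in PEA2 (8.21%) and 1681 lower (10.4%). The split at 8 h turned on PEA2 replicate 2 of that time, which lists 9274 genes above 0, and was 1882 higher and 1350 lower without it. With only libraries that list at least 12000 genes it was 1608 higher and 1294 lower. At 24 h, 2725 genes were called (16.9%), with 1433 higher (8.91%) and 1292 lower (8.03%). The untreated difference correlated across genes with that at 8 h at r = 0.616 and with that at 24 h at r = 0.679. Genes are not independent replicates, and the fits share 1 spread per gene. Of the 4592 called genes, 3803 (82.8%) kept their sign at both times, against 9142 of all 16090 tested genes (56.8%), and calls in the opposite direction numbered 3 at 8 h and 2 at 24 h. A stricter set, chosen after the data were seen, held genes called the same way untreated, without PEA1 replicate 2, at 8 h and at 24 h. It held 652 higher genes (4.05%) and 594 lower genes (3.69%).

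The genes highest in PEA2 over PEA1 included the epithelial genes MAL, KRT7 and KRT19. MAL, a membrane protein of apical transport in epithelia, was at 416, 392 and 389 TPM in PEA2 against 3.06 and 0 in PEA1 (difference 7.63 ± 0.41, adjusted p = 8.09e-09). KRT7, the keratin of simple glandular epithelium, was at 1049, 1015 and 1458 in PEA2 against 9.13 and 9.9 in PEA1 (difference 6.79 ± 0.41, adjusted p = 2.58e-08). KRT19, another simple-epithelium keratin, was at 267, 329 and 358 in PEA2 against 3.29 and 0 in PEA1. The 15 genes with the largest positive difference were chosen among called genes whose groups did not overlap, so neither the calls nor the separation is a result about them.

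Several of the 15 were listed at 0 in both PEA1 libraries, so no fold is given for them. CCL2, the chemokine that draws monocytes, was at 216, 193 and 170 in PEA2 (adjusted p = 3.37e-07). PDE1C, a cyclic nucleotide phosphodiesterase, was at 167, 176 and 176, and CDH5, the cadherin of endothelial junctions, at 169, 199 and 148. EHF, an epithelial ETS factor, was at 124, 141 and 107 in PEA2, and LAMB3, a chain of the epithelial anchoring laminin, at 98.9, 114 and 144. The PEA2 values of these genes lay within a narrow range while neither PEA1 library listed any. FGFBP1, a carrier that releases FGFs from the matrix, was at 101.2 to 155 in PEA2, MKX, a homeobox factor, at 111 to 118, and FST, the activin antagonist follistatin, at 91.2 to 95.7. FAIM3 (now FCMR), an IgM receptor, was at 72.1, 118 and 166.

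The remaining genes of the 15 had low PEA1 values. F3, tissue factor, which starts coagulation, was at 293, 201 and 254 in PEA2 against 1.05 and 0 in PEA1. EFEMP1, the matrix protein fibulin-3, was at 171, 173 and 150 in PEA2 against 0.756 and 0 in PEA1. MFI2 (now MELTF), melanotransferrin, was at 272, 302 and 238 in PEA2 against 0.716 and 3.07 in PEA1. All 15 were also called higher in PEA2 at 8 h and at 24 h. A fit without PEA1 replicate 2 reuses the other libraries by which the genes were chosen, so it is no separate check of them. At 24 h of carboplatin, MAL was at 529, 653 and 470 in PEA2 and listed at 0 in all 3 PEA1 libraries.

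The genes highest in PEA1 over PEA2 included renal and fetal genes. HAVCR1, the kidney injury molecule KIM-1, was at 413 and 366 TPM in PEA1 and listed at 0 in every PEA2 library (adjusted p = 2.56e-11). It stayed at 312 to 404 in the 6 treated PEA1 libraries and at 0 in the 6 treated PEA2 libraries. SDC2, the heparan sulfate proteoglycan syndecan-2, was at 162 and 265 in PEA1 and at 0 in PEA2. FXYD2, a regulator of the sodium pump in kidney tubules, was at 56.5 and 119 in PEA1 and at 0 in PEA2.

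HMGA2 and IGF2 had a wide spread between the PEA1 libraries. HMGA2, a chromatin protein of embryonic cells, was at 146 and 1116 in PEA1 and at 2.47 to 4.32 in PEA2 (difference -6.61 ± 0.58, adjusted p = 1.16e-06). IGF2, the fetal insulin-like growth factor, was at 36.5 and 211 in PEA1 and at most 0.292 in PEA2. PEG10, an imprinted gene derived from a retrotransposon, was at 540 and 407 in PEA1 and at 3.24 to 7.15 in PEA2. In the treated PEA1 libraries HMGA2 was at 32.9 to 68.9 and IGF2 at 1.68 to 6.89, below both untreated PEA1 values, and the line differences were -2.63 and -2.32 for HMGA2 and -1.8 and -2.12 for IGF2 at 8 h and 24 h. All 4 remained called, and drug and passage cannot be told apart in the lower treated PEA1 levels.

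COL6A2, a chain of collagen VI, was at 317 and 1693 in PEA1 and at 1.09 to 4.01 in PEA2. RELN, the secreted protein reelin, was at 83.5 and 50.7 in PEA1 and FAT1, a giant protocadherin, at 109 and 38.5, with every PEA2 library at 0 for both. EEF1A2, a tissue-restricted translation elongation factor, was at 494 and 588 in PEA1 and at 3.73 to 14.8 in PEA2. OR2AT4, an olfactory receptor gene, was at 568 and 516 in PEA1, and IGFN1, a muscle gene, at 258 and 443, while no PEA2 value exceeded 1.96 for either. In the treated PEA1 libraries OR2AT4 was at 5.81 to 30.4 and IGFN1 at 4.44 to 10, far below both untreated values. Drug and passage cannot be told apart in the lower levels of these genes. Their line differences were -8.56 untreated, -3.74 at 8 h and -4.1 at 24 h for OR2AT4, and -7.95, -2.65 and -3.07 for IGFN1. FAM101B (now RFLNB), an actin regulator, was at 72.2 and 230 in PEA1, and ZNF114, a zinc finger gene, at 58.6 and 54.5, against at most 1.41 in PEA2. The 15 genes with the largest negative difference were chosen by the same rule, so neither the calls nor the separation is a result about them. All 15 were also called lower at 8 h and at 24 h.

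**Figure D1:**
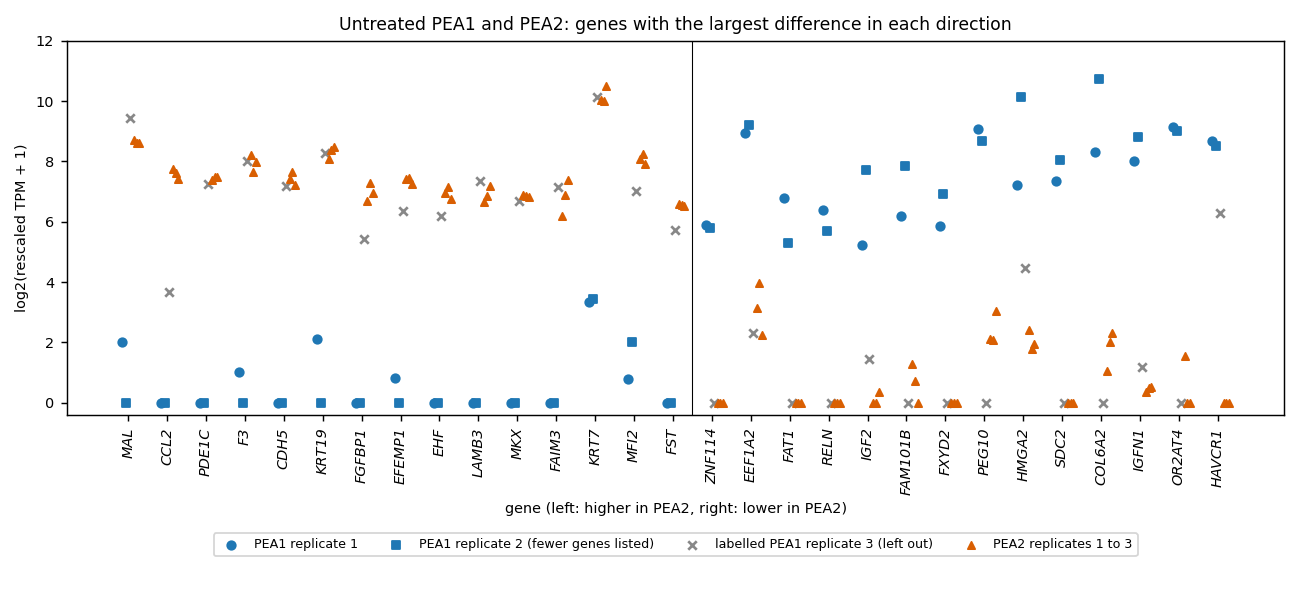
Each point is 1 untreated library, with genes on the x axis and log2(rescaled TPM + 1) on the y axis. The 15 genes on the left are higher in the 3 PEA2 libraries (triangles) than in both PEA1 libraries (circle and square), the 14 on the right are lower, and the left-out library labelled PEA1 replicate 3 (crosses) lies near PEA2 for most genes on each side.

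The left-out library labelled PEA1 replicate 3 lay nearer the PEA2 mean for 14 of the 15 higher genes and for 14 of the 15 lower genes. It had KRT7 at 1111 TPM, within the range of PEA2, MAL at 686, above it, and CDH5 at 146, just below it. It listed 10 of the 15 lower genes at 0 and had HAVCR1 at 78, which every PEA2 library listed at 0. Of the 8597 genes at 10 TPM or more in PEA1 replicate 1, the left-out library listed 2331 at 0 (27.1%). A 0 in it is therefore not read as absence, and for a lower gene a 0 counts as near PEA2 in any case. The library had r of 0.704 to 0.710 with the PEA2 libraries and of 0.602 and 0.532 with the PEA1 libraries. With it included among the PEA1 libraries, 2191 genes were called, 1717 higher and 474 lower.

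Markers of serous and Müllerian cells were checked against the labels. PAX8 was present in all 5 libraries, at 157 and 416 TPM in PEA1 and 80.9 to 106.2 in PEA2, while WT1, usual in serous carcinoma, did not exceed 2.57 in any. ESR1, the estrogen receptor, was listed at 0 in all 5. Of 17 tested members of the Müllerian and serous list (23 members), 10 were higher in PEA2, 3 lower and 4 not called, with a median difference of 2.55 against 0.18 over all tested genes. Without PEA1 replicate 2 the counts were 9 and 3. SOX17, a transcription factor of fallopian tube secretory cells, was at 66.5, 58.4 and 58 in PEA2 and 0 in both PEA1 libraries. WFDC2, the serum marker HE4, was at 59.1, 38.6 and 69.5 in PEA2 and 0 in PEA1. MUC16, the CA125 antigen, was at 19.4 to 23.2 in PEA2 against 0.0478 and 0.0868 in PEA1. In the treated PEA2 libraries MUC16 was at most 0.998, and the line difference was not called at 8 h or 24 h. PAX8 itself was lower in PEA2 by -1.42 ± 0.34 (adjusted p = 0.00621), a call that was lost without PEA1 replicate 2 (-0.77, adjusted p = 0.1).

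Some markers of other cell types were above 0: 3 of 8 for fibroblasts, 6 of 10 for leukocytes, 5 of 8 for endothelium and 6 of 7 for mesothelium in at least 1 of the 5 libraries. The fibroblast markers DCN, LUM, PDGFRA, FAP and COL3A1 were listed at 0 in every library. Of the 3 tested, PDPN was higher in PEA2, and COL1A1, at 27.1 and 102.4 in PEA1 against 2.32 to 4.25, and PDGFRB, at 6.18 and 12 against at most 0.209, were lower, as they were without PEA1 replicate 2. The list summed to 33.7 and 114 TPM in PEA1 and 26.6 to 37.2 in PEA2. Of 10 leukocyte markers none of the 4 tested was called, and the list summed to 41.0 and 103.8 in PEA1 and 30.4 to 51.6 in PEA2, most of it from CD68. The endothelial list summed to 9.92 and 12.7 in PEA1 and 170 to 218 in PEA2, nearly all of the latter from CDH5. Of 4 tested endothelial markers, CDH5 and KDR were higher in PEA2 and ERG was lower, with CLDN5 in addition higher without PEA1 replicate 2. KDR was at 0.834 to 1.94 in PEA2 and 0 in PEA1, ERG at 7.89 and 5.51 in PEA1 against at most 0.902, and CLDN5 at 10.5 to 18.6 in PEA2 against 2.03 and 7.16. PECAM1, VWF and EMCN, which define endothelium, were listed at 0 in all 5 libraries. Of 6 tested mesothelial markers, CALB2, MSLN and PDPN were higher in PEA2 and none lower (3 and 0 without PEA1 replicate 2), with sums of 71.0 and 179 in PEA1 and 122 to 137 in PEA2.

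Epithelial junction genes were mostly higher in PEA2. Of 29 tested members of the adhesion and junction list (30 members), 22 were called higher, 3 lower and 4 not called, with a median of 2.77. The counts were 19 and 3 without PEA1 replicate 2, and 22 and 3 at both 8 h and 24 h. CDH1, E-cadherin, the cadherin that holds epithelial cells together, was at 71.6, 71.9 and 64.2 in PEA2 against 0.239 and 1.68 in PEA1 (difference 5.27 ± 0.41, adjusted p = 3.8e-07). DSP, desmoplakin, which ties desmosomes to keratin, was at 87.9, 98.4 and 90.9 in PEA2 against 0.462 and 0 in PEA1. EPCAM, the epithelial adhesion molecule used to sort carcinoma cells, was at 102.1, 112 and 102.5 in PEA2 against 9.03 and 0 in PEA1. These genes were named for the size of their difference within the list, so their separation is not a result about them. Without PEA1 replicate 2, which leaves the other compared libraries unchanged, the differences were 5.83 for CDH1, 5.99 for DSP and 3.36 for EPCAM. JUP, plakoglobin, was at 159, 178 and 178 in PEA2 against 14.4 and 29.3. CLDN1 differed less, at 405, 446 and 398 against 109.6 and 105.1.

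The 3 junction genes that were lower in PEA2 were CLDN16, EVPL and TJP1. CLDN16, a claudin of the kidney tubule, was at 63.9 and 20 in PEA1 and 0.816 to 2.21 in PEA2. EVPL, envoplakin, was at 55.5 and 202 against 12 to 15.3, and TJP1, the scaffold ZO-1, at 134 and 118 against 48.6 to 56.4. All 3 were also lower at both drug times and without PEA1 replicate 2.

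CRB3, a polarity protein of the apical membrane, and CLDN7, a claudin of lateral junctions, are shown with the 250 bases before their RefSeq start sites because repressors of epithelial genes such as ZEB1 and SNAI2 are known to bind the E-box. The E-box CAGGTG or its reverse complement is in capitals, and CRB3 holds 5 copies and CLDN7 4, with a further copy in CLDN7 5 bases into the transcript. The sequences run 5′ to 3′ in the direction of the gene on GRCh38.p14, at chr19:6464021-6464270 on the plus strand for CRB3 and chr17:7262479-7262728 on the minus strand for CLDN7.
CRB3: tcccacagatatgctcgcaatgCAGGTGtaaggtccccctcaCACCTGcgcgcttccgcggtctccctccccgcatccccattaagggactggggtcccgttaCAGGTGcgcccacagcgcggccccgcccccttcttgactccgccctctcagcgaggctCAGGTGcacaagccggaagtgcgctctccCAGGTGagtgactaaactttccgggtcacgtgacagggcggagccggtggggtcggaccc
CLDN7: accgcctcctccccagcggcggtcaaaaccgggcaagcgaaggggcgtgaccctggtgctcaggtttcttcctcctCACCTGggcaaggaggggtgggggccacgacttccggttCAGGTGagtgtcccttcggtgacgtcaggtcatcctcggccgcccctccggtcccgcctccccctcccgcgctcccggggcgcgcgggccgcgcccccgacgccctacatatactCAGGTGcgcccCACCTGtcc
Of 35116 RefSeq promoter windows of 300 bases, 7231 (20.6%) hold CAGGTG on either strand, so a match alone is common and is a description of these letters only. CRB3 was at 23.5, 45.8 and 26.6 TPM in PEA2 against 1.71 and 0 in PEA1. CLDN7 was at 56.1, 59.6 and 35.6 in PEA2 and at 0 in both PEA1 libraries. These genes and motifs were picked after their values were seen.

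Regulators of the epithelial state followed the junction genes. Of 19 tested members (24 members), 14 were higher in PEA2, 1 lower and 4 not called, and 12 and 0 without PEA1 replicate 2. ESRP1, the splicing factor that sets epithelial isoforms, was at 33.9, 34.7 and 19.5 in PEA2 and 0 in both PEA1 libraries. ST14, the membrane protease matriptase, was at 82.4, 73.2 and 92.7 in PEA2 and 0 in PEA1. Its inhibitors SPINT1 and SPINT2 were also higher, SPINT2 at 197 to 245 against 16.5 and 25.9. GRHL2, a factor that maintains epithelium, was low, at 3.55, 4.56 and 10 against 0.438 and 0, and its call was lost without PEA1 replicate 2. ELF3 was the member lower in PEA2, at 7.33 to 12 against 15.3 and 48.3, also lost without that library.

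Of 8 tested keratins (16 members), 6 were higher in PEA2 and none lower, under every one of the untreated, 8 h, 24 h and single-PEA1-library counts. The list summed to 3435 to 4739 TPM in PEA2 and 763 and 931 in PEA1. KRT8 and KRT18, the partners of simple epithelium, were already high in PEA1, at 167 and 175 for KRT8 and 550 and 706 for KRT18. In PEA2 they were at 577 to 804 and 1335 to 1864, so they differed by 1.91 ± 0.24 and 1.31 ± 0.25, less than KRT7 and KRT19.

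Mesenchymal genes split in both directions. Of 28 tested members (34 members), 9 were higher in PEA2, 11 lower and 8 not called, with a median of -0.54. Without PEA1 replicate 2 the counts were 6 and 9. VIM, vimentin, the intermediate filament of mesenchymal cells, was at 2102 and 3245 in PEA1 and at 141, 119 and 94 in PEA2 (difference -4.48 ± 0.25, adjusted p = 1.32e-08). In the treated libraries VIM was at 2273 to 3089 in PEA1 and 68.1 to 125 in PEA2. COL6A1 was at 129 and 556 against 2.96 to 6.8, and FLNC, filamin C, at 61.8 and 91.5 against 2.52 to 4.7. ZEB1, a repressor of E-cadherin, was at 24.9 and 9.74 in PEA1 and 2.38 to 4.26 in PEA2. AXL, a receptor kinase of mesenchymal-like carcinoma cells, was at 220 and 434 against 109 to 123.

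Other mesenchymal genes were higher in PEA2. FN1, fibronectin, was at 2888, 2771 and 2585 in PEA2 against 206 and 138 in PEA1 (difference 4.02 ± 0.20, adjusted p = 5.43e-09). CDH2, N-cadherin, was at 250, 235 and 244 against 55.9 and 22.2. COL5A1 was at 69.4 to 119 in PEA2 against 0.398 and 0, and SPARC, a collagen-binding matrix protein, at 67.8 to 132 against 1.61 and 0. PEA2 thus had both E-cadherin and N-cadherin above PEA1. SNAI2, at 13.3, 13.4 and 22.2 against 1.68 and 0, ACTA2 and THY1 were called higher only with PEA1 replicate 2 in the fit, and none of these 3 was called at 8 h or 24 h. TAGLN, transgelin, was higher untreated by 2.07 ± 0.40, and its differences at 8 h and 24 h were not called.

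**Figure D2:**
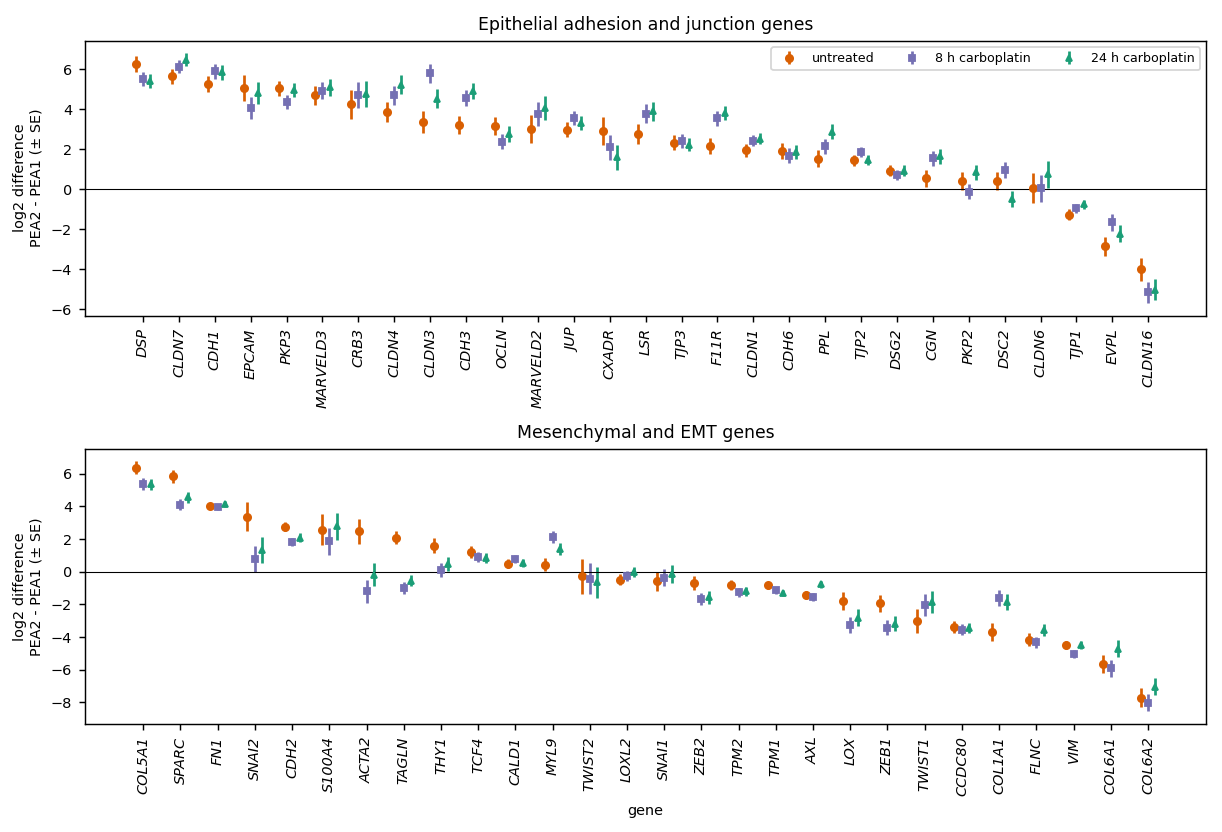
Each point is the PEA2 minus PEA1 difference of 1 gene on the log2(TPM + 1) scale with its standard error, untreated (circles), at 8 h (squares) and at 24 h (triangles) of carboplatin. In the upper panel 22 of 29 junction genes are called above 0 untreated, and the lower panel of mesenchymal genes runs from COL5A1 and SPARC above 0 to VIM, COL6A1 and COL6A2 below 0.

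Genes of the basement membrane differed in both directions. Of 20 tested members, 6 were higher in PEA2, 5 lower and 9 not called, and 7 and 4 without PEA1 replicate 2. LAMA3, a chain of the epithelial anchoring laminin, was at 152, 114 and 168 against 13.6 and 7.88, and its partner chain LAMB3 was higher as given above. LAMC1 and LAMB1, chains of the widespread laminins, were lower, LAMC1 at 89.1 to 96.4 against 179 and 256. COL7A1, the collagen of epithelial anchoring fibrils, was lower untreated, at 9 to 15.1 against 62.2 and 268, opposite to LAMA3 and LAMB3. Its differences at 8 h (-0.9) and 24 h (-1.19) were not called, and the treated PEA1 libraries had it at 5.77 to 11.8. COL18A1 was lower as well, at 70.6 to 92.4 against 137 and 642, a call lost without PEA1 replicate 2. NID1 was lower, at 1.44 to 7.27 against 39.1 and 50.6, and its relative NID2 higher, at 77.6 to 105.9 against 3.62 and 0. Both nidogens link laminin to collagen IV.

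Of 16 tested integrins, 3 were higher, 5 lower and 8 not called, and 3 and 3 without PEA1 replicate 2. ITGB4, which pairs with ITGA6 as the laminin receptor of hemidesmosomes, was at 54.6, 45 and 70.9 in PEA2 against 3.6 and 5.66. ITGB8 was at 85.5 to 113 against 8.75 and 8.65. ITGB3, a vitronectin receptor chain, was at 56.9 and 41.2 in PEA1 and 0, 0 and 0.137 in PEA2 (difference -5.57 ± 0.37, adjusted p = 6.75e-08). ITGA11, a collagen receptor chain, was at 33 and 33 in PEA1 against 1.18 to 1.68.

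Of 25 tested matrix proteases and inhibitors (32 members), 11 were higher in PEA2, 1 lower and 13 not called, and 13 and 1 without PEA1 replicate 2. MMP2, gelatinase A, was at 103.6, 73.1 and 72.5 in PEA2 against 4.25 and 9.24. SLPI, a secreted inhibitor of neutrophil elastase, was at 60.3 to 65.8 against 2.31 and 0. PLAU, urokinase, was at 227 to 308 against 94.2 and 99.1. ADAM19 was the lower member, at 14.4 and 8.61 in PEA1 and at most 0.257 in PEA2.

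Chemokines and cytokines differed in both directions. Of 32 tested members (38 members), 13 were higher in PEA2, 4 lower and 15 not called, and 11 and 2 without PEA1 replicate 2. CXCL8, interleukin-8, a neutrophil attractant, was at 77, 83.5 and 52 TPM in PEA2 and 0 in both PEA1 libraries. CXCL5, which acts on the same receptor CXCR2, was at 96.1, 82.5 and 45.4 and 0 in PEA1. CXCL6, the closest relative of CXCL5, went the other way, at 103.9 and 48.3 in PEA1 and 4.29, 3.77 and 2.9 in PEA2 (difference -3.96 ± 0.60, adjusted p = 0.00022). CXCL1 was the most abundant of these chemokines and was lower in PEA2, at 262 to 338 against 693 and 888. TNF was at 22.3, 18.7 and 37 in PEA2 and 0 in PEA1, and IL1A at 36.4 to 54.8 against 3.96 and 0. At 24 h CXCL8 was at 355, 275 and 214 in PEA2 and at most 1.7 in PEA1.

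The 250 bases before the RefSeq start sites of CXCL5, CXCL6 and CXCL8 are shown because these neighbouring chemokine genes differed in opposite directions while each window holds the same NF-kB motif, in capitals. They run 5′ to 3′ along the gene on GRCh38.p14, at chr4:73998678-73998927 (minus strand), chr4:73836428-73836677 (plus) and chr4:73740319-73740568 (plus).
CXCL5: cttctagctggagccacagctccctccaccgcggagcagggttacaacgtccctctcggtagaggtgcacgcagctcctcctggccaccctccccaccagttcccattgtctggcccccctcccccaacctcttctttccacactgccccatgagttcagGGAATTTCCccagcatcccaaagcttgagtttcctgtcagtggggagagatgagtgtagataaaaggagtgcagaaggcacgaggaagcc
CXCL6: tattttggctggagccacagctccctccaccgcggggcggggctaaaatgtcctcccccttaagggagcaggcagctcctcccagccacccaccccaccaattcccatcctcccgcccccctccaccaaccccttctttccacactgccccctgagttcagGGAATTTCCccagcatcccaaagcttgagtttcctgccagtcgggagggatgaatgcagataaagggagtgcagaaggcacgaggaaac
CXCL8: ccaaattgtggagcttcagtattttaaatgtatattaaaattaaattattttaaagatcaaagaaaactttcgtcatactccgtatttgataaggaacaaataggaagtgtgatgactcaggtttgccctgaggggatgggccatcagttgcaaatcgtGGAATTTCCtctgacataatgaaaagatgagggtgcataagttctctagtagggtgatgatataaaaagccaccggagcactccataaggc
The motif was searched as GGAANTTCC, which reads the same on both strands, and starts 90, 89 and 91 bases before the start site. It occurs in 339 of 35116 promoter windows (0.965%) and in at least 1 window of 317 of 27305 genes (1.16%). Where a gene had more than 1 start site, a window with the motif was shown. The 300-base windows of CXCL5 and CXCL6 are identical at 83.1% of aligned positions, and that of CXCL8 at 41.8% and 43% with them. CXCL5 and CXCL6 are also close copies as transcripts, and reads may be divided between them in a way the table does not show. The motif was picked after the values were seen.

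Of 22 NF-kB subunits and feedback genes, 6 were higher in PEA2, 2 lower and 14 not called, and 5 and 2 without PEA1 replicate 2. The list also counts inflammatory genes that are neither subunits nor feedback genes, among them ICAM1, LCN2 and SAA2. ICAM1, a leukocyte adhesion molecule, was at 236, 266 and 191 against 38.5 and 52.8, and LCN2, lipocalin-2, at 885, 781 and 883 against 173 and 193. The NF-kB regulators NFKBIZ and BCL3 had differences of -1.83 and -1.78 and were not called. SAA1, an acute-phase protein, was lower, at 462 to 583 against 1337 and 1420. SAA2 was lower too, but SAA1 and SAA2 are near-identical and their split is uncertain.

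Interferon-stimulated genes were higher in PEA2 in part. Of 35 tested members (37 members), 19 were called higher, 1 lower and 15 not called, with a median of 1.69. Without PEA1 replicate 2 the counts were 11 higher and 1 lower, and 5 of the higher genes were called in addition at both 8 h and 24 h. MX2, an antiviral GTPase, was at 19.7, 25.4 and 18 in PEA2 against 0.39 and 0. IFITM3, a restriction factor of virus entry, was at 189, 222 and 110 against 60.3 and 42.6. IFI27 varied within PEA2, at 91.7, 50.5 and 29.4, and was 0 in both PEA1 libraries.

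Antigen presentation genes were higher in PEA2 for 13 of 17 tested members (22 members), with 1 lower and 3 not called, and for 10, with 1 lower, without PEA1 replicate 2. HLA-B was at 307, 204 and 381 in PEA2 against 41.1 and 62 (difference 2.49 ± 0.27, adjusted p = 1.01e-05). B2M, the light chain of class I molecules, was at 439 to 559 against 140 and 98.6. TAP1, the peptide transporter, was at 31.5 to 54.2 against 5.85 and 7.5, and the immunoproteasome subunit PSMB8 at 43.5 to 90.7 against 13.3 and 19.6. HLA class I genes are similar and polymorphic, so their levels are uncertain between genes. HLA-DMB was the lower member, at 11.3 and 6.12 in PEA1 and 0, 0 and 2 in PEA2.

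CPT1A, which the series title names, was low in both lines. It was at 5.88, 6.12 and 13.7 TPM in PEA2 against 0.883 and 0 in PEA1, with no overlap (difference 2.71 ± 0.60, adjusted p = 0.00396). Without PEA1 replicate 2 the difference was 2.23 and the adjusted p 0.0599. It was called higher in PEA2 at 8 h (3.25, adjusted p = 0.000505) and at 24 h (2.1, adjusted p = 0.0126). Of 29 tested genes of fatty acid oxidation (33 members), 4 were higher, 3 lower and 22 not called, and 2 and 4 without PEA1 replicate 2. Their median was 0.70 and turned to -0.44 without PEA1 replicate 2. HADHA, the alpha chain of the mitochondrial trifunctional protein, was lower, at 19.5 to 31.5 against 87.4 and 63.3. The called shares of this list lay near those of all tested genes (17% higher and 11.5% lower).

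Glycolysis genes were mostly lower in PEA2 or not called. Of 26 tested members (27 members), 11 were lower, 1 higher and 14 not called, with a median of -0.49, and 9 and 1 without PEA1 replicate 2. PFKP, the platelet isoform of phosphofructokinase, was at 293 and 276 in PEA1 and at 18.8, 15.1 and 22 in PEA2 (difference -3.87 ± 0.23, adjusted p = 1.94e-08). PFKFB3, which makes the activator of phosphofructokinase, was at 90.3 and 93.3 against 0.576 to 4.26. GPI was at 167 and 160 against 57.6 to 72.6, and the lactate transporter SLC16A1 at 201 and 82.8 against 46.4 to 54.8. GAPDH was at 4194 and 8433 in PEA1 and 1744 to 1771 in PEA2. TXNIP, an inhibitor of glucose uptake, was the higher member, at 41.9, 49.3 and 43.7 against 18.1 and 5.55. At 8 h and 24 h, 13 and 12 members were lower.

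Of 27 tested genes of fatty acid and cholesterol synthesis, 2 were higher, 5 lower and 20 not called, and 1 and 6 without PEA1 replicate 2. FASN, fatty acid synthase, was at 149 and 365 in untreated PEA1 against 44.3 to 46.9 in PEA2. In the treated PEA1 libraries FASN was at 28.9 to 49.5, and its line difference was -1.16 at 8 h and not called at 24 h (-0.85). Of 20 hypoxia-response genes, 5 were higher, 4 lower and 11 not called, which turned to 3 higher and 6 lower without PEA1 replicate 2. EGLN3, an oxygen sensor, was at 51.8 to 55.1 in PEA2 and 0 in PEA1, while EPAS1, the HIF-2 alpha subunit, was lower at 6.1 to 7.51 against 56.3 and 123.

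Glutathione and NRF2 genes showed no common direction: of 33 tested members (36 members), 7 were higher, 5 lower and 21 not called, with a median of 0. Both called shares were only slightly above those of all tested genes (17% higher and 11.5% lower). The balance turned to 4 higher and 6 lower without PEA1 replicate 2. ALDH1A3, an aldehyde dehydrogenase, was at 588, 441 and 541 TPM in PEA2 against 6.6 and 5.82 in PEA1 (difference 6.18 ± 0.25, adjusted p = 9.32e-10). TXNRD1, thioredoxin reductase, was at 393 to 457 against 123 and 43.6, and GPX4, which repairs lipid peroxides, at 436 to 538 against 182 and 193. NQO1, a standard NRF2 target, was slightly lower, at 54 to 68 against 129 and 75.3. NFE2L2, the gene of NRF2, was at 43.8 to 78.8 against 77.4 and 88.8 and was not called.

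Of 17 tested transporters of copper, platinum and drugs (21 members), 3 were higher, 3 lower and 11 not called, and 1 and 2 without PEA1 replicate 2. SLC31A1, the copper importer CTR1, was at 8.84, 11.7 and 6.74 in PEA2 and 10.8 and 7.61 in PEA1, a difference of -0.02 ± 0.34. ATP7B, a copper exporter, was at 1.62 and 3.19 in PEA1 and listed at 0 in PEA2. No untreated PEA library of the comparison listed ABCB1, the multidrug efflux pump, above 0. ATOX1, a copper chaperone, was higher untreated at 62.5 to 121 against 44.5 and 20.6, a call lost without PEA1 replicate 2. Of 8 tested metallothioneins, 3 were higher and none lower, only MT1E without PEA1 replicate 2, and none was called at 8 h or 24 h. The metallothioneins are close copies.

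Repair genes were called at shares no higher than those of all tested genes (17% higher and 11.5% lower). Of 30 crosslink and homologous recombination genes, 5 were higher, 1 lower and 24 not called, and only RBBP8, the end-resection factor CtIP, was called without PEA1 replicate 2. It was at 193, 137 and 175 against 50.5 and 22.5. BRCA1 was at 32.6, 37.4 and 32.6 in PEA2 against 32.2 and 9.59 (difference 0.91 ± 0.37, adjusted p = 0.0789). BRCA2 was at 9.63 to 11 against 9.2 and 3.16 (adjusted p = 0.192). Of 25 nucleotide excision and mismatch repair genes, 3 were higher, 1 lower and 21 not called, which turned to 1 higher and 2 lower without PEA1 replicate 2. ERCC6 was higher, at 9.53 to 15.6 against 0.509 and 0.

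Of 30 tested apoptosis and damage-response genes, 4 were higher, 4 lower and 22 not called, and 3 and 2 without PEA1 replicate 2. CDKN1A, the cell cycle inhibitor p21, was low in both lines, at 4.51 to 6.47 against 2.24 and 1.97 (adjusted p = 0.338). GADD45A, a stress gene, was at 92.2 to 128 against 15.1 and 20.2, and BCL2, which blocks apoptosis, was lower at 1.39 to 2.14 against 9.17 and 18. Of 34 cell cycle genes, 7 were higher, 3 lower and 24 not called, and 3 and 2 without PEA1 replicate 2. CCND2 was at 41.5, 39.7 and 48.9 in PEA2 and 0 in PEA1, while its relative CCND3 was lower, at 35.2 to 47.6 against 177 and 755. Both are D-type cyclins of the G1 phase. The called shares of the apoptosis and cell cycle lists lay near those of all tested genes (17% higher and 11.5% lower).

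Growth factor and receptor kinase genes differed in both directions. Of 33 tested members (38 members), 9 were higher, 10 lower and 14 not called, and 4 and 8 without PEA1 replicate 2. IGFBP3 was at 450, 554 and 346 in PEA2 against 66.9 and 36.2, whereas IGFBP7 was at 429 and 761 in PEA1 against 18.4 to 27.1. IGF1R was lower in PEA2, at 1.64 to 3.56 against 18.3 and 36.1, as was FGFR4, at 44.1 and 70.4 in PEA1 against 0, 0 and 1.39.

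Of 27 tested TGF-beta, BMP and YAP genes, 7 were higher, 4 lower and 16 not called, and 7 and 3 without PEA1 replicate 2. INHBA, the activin A subunit, was at 1493, 1859 and 1499 in PEA2 against 111 and 82.1 (difference 4.06 ± 0.22, adjusted p = 9.15e-09). INHBB was at 48 to 51.9 in PEA2 and 0 in PEA1. ANKRD1, a YAP target, was at 453, 492 and 471 against 7.19 and 12.7. ID2, a BMP target, was lower, at 19.6 and 53.4 in PEA1 against at most 0.516. FST, the antagonist of activin, was among the genes highest in PEA2 over PEA1, as given above.

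Of 25 tested WNT and NOTCH genes (32 members), 5 were higher, 7 lower and 13 not called, and 4 and 4 without PEA1 replicate 2. The ligands WNT7A and WNT7B were higher, WNT7A at 54.8, 31.3 and 49.3 against 0.7 and 0, and the NOTCH ligand JAG2 was lower, at 5.26 and 23.9 in PEA1 against at most 0.232. Of 22 tested S100 and annexin genes (25 members), 7 were higher, 2 lower and 13 not called, and 5 and 1 without PEA1 replicate 2. S100A6 was at 1947, 1454 and 1927 against 217 and 123, and ANXA6 lower at 26.4 to 32.8 against 119 and 104.35.

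Of 8 tested genes of renal epithelium and kidney injury (14 members), 5 were lower in PEA2, 1 higher and 2 not called, with a median of -2.08. Besides HAVCR1, SPP1, osteopontin, was at 74.7 and 14.2 in PEA1 and 0 in PEA2, and GGT1, the glutathione-cleaving enzyme of the brush border, at 37.2 and 52.5 against at most 0.662. SLC34A2, a phosphate transporter, was at 40.6 and 22.5 against 3.02 to 6.65. The higher member was LCN2. The counts were 6 lower and 1 higher without PEA1 replicate 2, at 8 h and at 24 h.

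**Figure D3:**
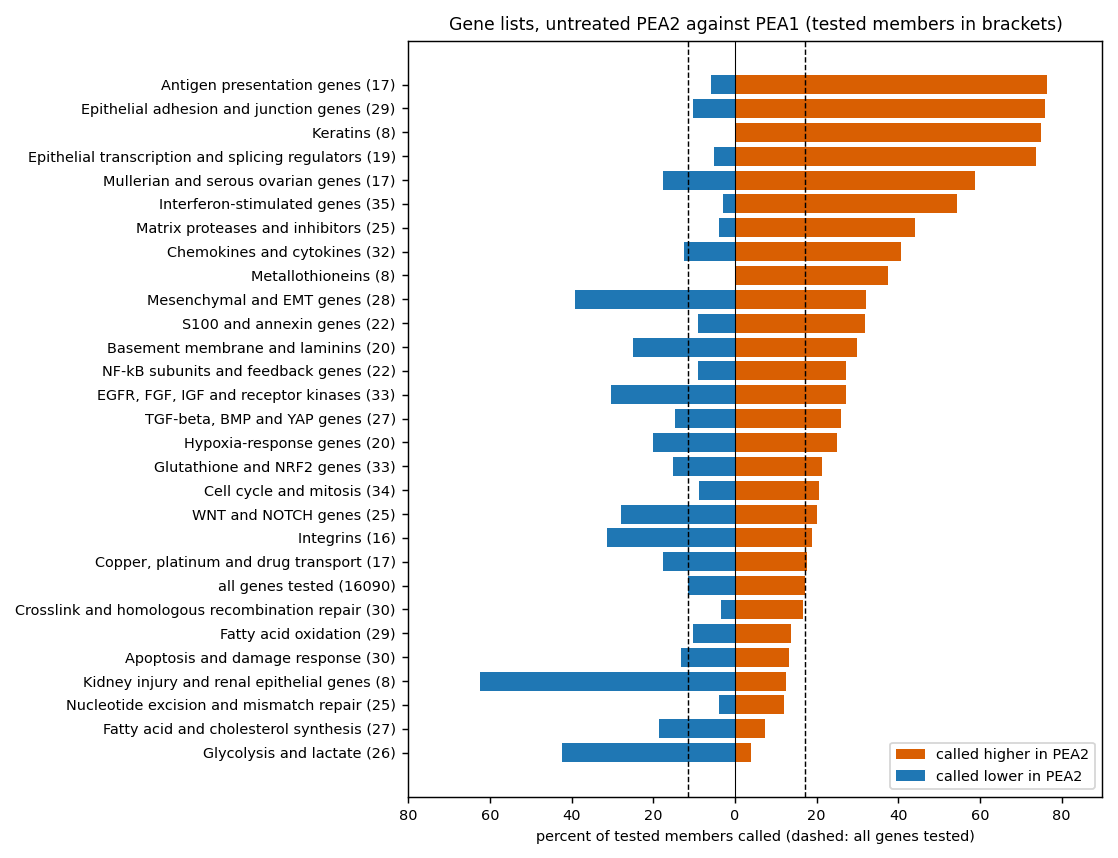
Bars show the percent of tested members of each gene list with at least 8 tested members called higher (orange, right) or lower (blue, left) in untreated PEA2, with the number tested in brackets and dashed lines at the 17% and 11.5% of all 16090 genes. Antigen presentation, junction, keratin and epithelial regulator lists have the largest higher shares among these lists, and the renal and glycolysis lists the largest lower shares.

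Called genes also lay next to each other. Among 15555 genes placed in order by RefSeq, 187 runs of at least 3 adjacent tested genes were higher in PEA2 and 73 were lower. How many runs the number of calls alone would give was not tested. The longest lower run had 8 genes, from ASB13 to PFKFB3, with a median difference of -2.74, of which 6 were called lower at 8 h, 8 at 24 h and 7 without PEA1 replicate 2. It holds PFKFB3, the glycolysis gene above, and IL15RA, an interleukin-15 receptor chain. COL6A1, COL6A2, SPATC1L and LSS, a cholesterol enzyme, formed a lower run of 4, all called at 8 h and 3 at 24 h. A higher run of 6 genes from IFITM1 to ANO9 held IFITM3 and PKP3, a desmosome gene, and 5 were called at 8 h and 6 at 24 h. A higher run of 9 genes from GALNT1 to CELF4 had 6 called at each time. The longest higher run, of 13 genes from PSG8 to CD177, is mostly made of pregnancy-specific glycoprotein genes, near-identical copies whose levels are uncertain, and 3 of them were called at 8 h.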

How the data were processed

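RNA-seq libraries were made from total RNA with a stranded kit and the submitters' processing notes name bcl2fastq 2.18 and hg19. The deposited values are TPM per gene, which the name of the authors' table ascribes to RSEM. Nothing in the sources used here gives the aligner, annotation or strand setting. The table holds 25435 genes, 28 of them with symbols turned into dates, and each library has the same sum of TPM.

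TPM of 17 PEA libraries in 6 groups (all PEA libraries but the one labelled PEA1 untreated replicate 3) were divided by median-ratio factors over 7734 genes above 0 in all. The filter kept the 16090 genes that reached a TPM of 1 in 2 or more libraries. limma 3.58.1 in R 4.3.3 was fitted to log2(TPM + 1) with a mean-variance trend and 1 mean per group, and p-values were adjusted over all tested genes (Benjamini-Hochberg). The treated libraries entered so that all groups share 1 estimate of the spread per gene. An exact permutation test of 3 libraries against 2 cannot reach 0.05, so none is given. The fit was tested on simulated data, where it missed many of the smaller known differences and some of the largest, and the recovery asked of it was lowered after a first run.

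Samples were grouped by their titles. Gene lists (32 lists, 773 distinct genes, 672 tested) and the choice of libraries were made with earlier results of these data known. Genes were named by size, as the 15 largest differences in each direction among called genes whose lines did not overlap and whose mean was at least 20 TPM in the higher line, leaving out near-identical families, antisense and small RNA genes. Further names are list members, genes always looked at (CPT1A, BRCA1, BRCA2, CDKN1A, EPCAM, VIM, KRT7, CCL2 and HAVCR1), members of runs of neighbours, and list members with opposite directions under drug. Some genes these rules pick are not reported here. Neighbours and current symbols came from RefSeq (GRCh38.p14), which matched 24120 of the table's genes, and no gene coordinate of the table is printed. Promoter windows came from RefSeq (GRCh38.p14). Of 6 motifs searched, 2 are shown, picked after the values were seen. Same-numbered untreated libraries hardly deviated together (r of 0.048 and 0.068), but with 2 PEA1 libraries that mirror each other this check is weak. At 24 h the same-numbered r was -0.085, 0.253 and 0.225. The replicate number is not treated as a pairing in the main fit. Alternatives covered the libraries in the model, the zeros of PEA1 replicate 2, scaling, pseudocount, filters, the trend, a replicate block and each replicate left out.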

Additional observations from a re-analysis of the deposited data

Results flagged for a closer look

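The left-out library labelled PEA1 untreated replicate 3 was high for the genes that were highest in PEA2 over PEA1. It had MAL at 686 TPM, CCL2 at 11.7, PDE1C at 152, F3 at 256, CDH5 at 146 and KRT19 at 308. FGFBP1 was at 42 TPM there, EFEMP1 at 81.6, EHF at 71.7, LAMB3 at 162 and MKX at 102.04. FAIM3 was at 142 TPM, KRT7 at 1111, MFI2 at 129 and FST at 52.2. Each value is more than 2 times that of either PEA1 library used, a rule chosen after the data were seen. For CCL2 the value lay far below the 170 to 216 TPM of PEA2.

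For 13 of 672 tested list members the lines did not overlap untreated nor under drug, but in opposite directions. Among all 16090 genes, the untreated lines did not overlap for 25.8% with PEA2 higher and 20.2% with PEA2 lower. How many of those turned under drug was not counted, so 13 of 672 is not a result about the list members. Of the 13, only ATOX1, CCNE2 and TAGLN were called untreated, and only MVK at 8 h among the treated differences below. The differences (PEA2 minus PEA1, log2) were compared by the order of the values only, and the change between conditions was not tested. Against 8 h of carboplatin, the difference was 1.54 untreated and -0.74 treated for ATOX1, 2.04 and -2.33 for the chemokine CXCL3, and 0.58 and -0.36 for the receptor EPHA2. It was 0.42 and -0.49 for FDPS, 0.53 and -0.51 for hexokinase 2 (HK2), and 1.6 and -2.1 for MVK. It was -0.41 and 0.15 for MCM3, -0.27 and 0.65 for SREBF2, and 2.07 and -0.98 for TAGLN. Against 24 h it was 1.02 and -0.44 for CCNE2, -0.51 and 0.37 for MKI67, -0.45 and 0.73 for TEAD1, and -0.85 and 0.3 for YAP1.

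For MVK and CXCL3 the PEA2 library at 8 h with 9274 genes listed was at 0, and PEA1 replicate 2 was at 0 untreated for both. Without PEA1 replicate 2 their untreated differences were 0.59 and 0.45, and neither was called with it or without it. TAGLN was at 71.5, 91.5 and 96 TPM in PEA1 at 8 h, above both untreated PEA1 values of 19.2 and 7.49, and at 29.1 to 65.6 in PEA2.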

How the results depend on the processing

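The number of genes called untreated depended on which libraries set the spread. It was 4592 with the 17 PEA libraries, 1179 with the 5 compared libraries alone, 1156 with all 18 groups and 2095 with libraries that list at least 12000 genes, which leaves 1 PEA1 library. Including the library labelled PEA1 replicate 3 gave 2191. Leaving out 1 library gave 2479 (without PEA1 replicate 2) to 7111 (without PEA1 replicate 1). The calls shared with the same direction numbered 1147 of the 1179 and 1078 of the 1156. Without rescaling the median of all genes was 0.351 in place of 0.183, and 4671 genes were called. Upper-quartile scaling, pseudocount, filters and the trend kept the count within 1.5 times. The 8 h and 24 h counts stayed within 1.5 times under every alternative run, although without the PEA2 8 h replicate 2 the 8 h split became 1882 higher and 1350 lower.

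With a replicate block the counts were 3672 untreated, 2748 at 8 h and 2558 at 24 h. Same-numbered libraries correlated at -0.014, -0.059 and 0.077 at 8 h and at -0.085, 0.253 and 0.225 at 24 h.

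Of 190 named or followed genes 156 were called, and 76 kept their call under all 17 settings. SAA2 (0.65) and LSS (0.06) reversed with the library labelled PEA1 replicate 3 included, and the cause was not tested. CPT1A lost its call with the 5 libraries alone, with all 18 groups and without PEA1 replicate 2, and GAPDH with the first 2 of these. The depth is unknown, so no detection limit can be given for a gene listed at 0.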
